A study of Mus musculus with 15 samples.

Results

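The voltage-gated calcium channel subunits described here are 10 genes, 7 for the pore-forming alpha1 subunit (Cacna1a, Cacna1b, Cacna1c, Cacna1d, Cacna1e, Cacna1h and Cacna1i) and 3 for the auxiliary alpha2delta subunit (Cacna2d1, Cacna2d2 and Cacna2d3). They were taken as a family by gene symbol, with earlier results of these data known, and they are read by 11 of the 35556 probe sets on the array, where a probe set is a group of short DNA probes that reports 1 gene. All 10 are among the 19938 genes tested. The study profiled RNA of large sensory neurons from the dorsal root ganglia of mice, with 15 Affymetrix arrays in 5 groups of 3 biological replicates. All mice were C57BL/6 and carried a green fluorescent reporter driven by the calcitonin gene-related peptide (CGRP) promoter, so that a CGRP-positive cell is one in which that promoter drives the reporter. Neurons over 26.9 µm across were taken from lumbar ganglia 2 to 5 of the experimental side and sorted by the reporter and by a retrograde tracer, wheat germ agglutinin, given 5 days before killing. The study's title names mechanosensitive proteins of myelinated afferents after inflammation.

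The CFA paw and saline paw groups held CGRP-positive neurons projecting to skin, from mice given complete Freund's adjuvant (CFA), which causes inflammation, or saline in the paw. The CFA muscle, acid muscle and saline muscle groups held CGRP-negative neurons projecting to muscle, from mice given CFA, acid or saline in the muscle. The saline groups were the controls. The tracer went into the gastrocnemius muscle or the saphenous nerve, so the paw and muscle groups differed at once in the tissue reached, in CGRP status and in the sites of injection and tracing, which cannot be told apart. The labels give neither the number of mice behind a sample nor their age or sex.

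Voltage-gated calcium channels open when the membrane depolarises and let calcium into the neuron. Each channel is built around 1 alpha1 subunit, which forms the pore and sets the current type: P/Q-type for Cacna1a, N-type for Cacna1b, R-type for Cacna1e, L-type for Cacna1c and Cacna1d, and low-voltage-activated T-type for Cacna1h and Cacna1i. Alpha2delta subunits raise the number of channels at the cell surface and at terminals, and the products of Cacna2d1 and Cacna2d2 are the binding sites of gabapentin. In dorsal root ganglion neurons the N- and P/Q-type channels drive transmitter release in the spinal cord, and the T-type channel of Cacna1h sets excitability near rest.

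RefSeq promoter windows were at hand for 8 of the 10 genes, with 11 windows in all and none for Cacna1a or Cacna1h. The stretches below lie before the annotated start of 3 genes, build GRCm38.p6, and are shown because 2 of these genes, Cacna2d2 and Cacna1b, were higher in the paw groups and the other, Cacna1i, was not. Capitals mark the GC box, GGGCGG or its complement CCGCCC, and each line runs 5′ to 3′ on the gene's strand. The Cacna2d2 stretch is chr9:107399630-107399732 on the plus strand, the Cacna1b stretch is chr2:24763201-24763402 on the minus strand, and the Cacna1i stretch is chr15:80286988-80287237 on the plus strand.
Cacna2d2: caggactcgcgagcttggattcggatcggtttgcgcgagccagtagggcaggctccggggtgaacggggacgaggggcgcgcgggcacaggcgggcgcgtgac
Cacna1b: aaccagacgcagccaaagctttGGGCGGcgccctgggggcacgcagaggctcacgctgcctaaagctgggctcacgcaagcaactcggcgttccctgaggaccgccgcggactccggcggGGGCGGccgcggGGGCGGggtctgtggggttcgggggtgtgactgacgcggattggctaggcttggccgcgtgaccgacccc
Cacna1i: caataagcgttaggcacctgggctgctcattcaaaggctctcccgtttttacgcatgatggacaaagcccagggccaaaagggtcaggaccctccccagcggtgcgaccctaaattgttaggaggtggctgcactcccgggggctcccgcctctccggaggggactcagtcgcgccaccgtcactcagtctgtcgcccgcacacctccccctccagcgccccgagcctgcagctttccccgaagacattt
The stretches stop where the annotated gene begins, so they differ in length, with 103 bases for Cacna2d2, 202 for Cacna1b and 250 for Cacna1i. The Cacna1b stretch holds 3 GC boxes, and the Cacna2d2 and Cacna1i stretches hold 0, although the full 250-base window of Cacna2d2 holds 1. Over the 250 bases before each start, and on both strands, 6 of the 11 windows of these genes hold a GC box, against 32.7% of 32851 mouse windows of the same length. The TATA box, TATAAA, is in 1 of the 11 windows (12.4% of all windows), the CAAT box, CCAAT, in 3 (33.8%) and the cyclic AMP response element, TGACGTCA, in 0 (1.5%). None of these motifs contains another. The window of Cacna2d2 has 74.4% G and C bases and that of Cacna1b 72.0%, against a median of 52.4% over all windows. The Cacna1i window has 62.4%. Among other genes higher in paw, the Cacna1e window has 52.0% and 0 GC boxes, and those of Cacna1c have 50.4%, 82.8% and 51.6%. Among genes not called higher, the windows of Cacna2d1 and Cacna2d3 have 82.4% and 80.0%, with 6 and 4 GC boxes. Those of Cacna1d have 86.4% and 39.6%. The share of G and C bases thus overlapped between the genes higher in paw and the others. A stretch before Cacna1d, of 250 bases, is not shown. These matches describe the letters only.

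The median level over the probe sets of an array ran from 2.65 to 2.92 on the log2 scale. The SD over genes was 1.66 to 1.80 on 5 of the 6 paw arrays, 1.42 on saline paw replicate 1, and 1.28 to 1.55 on those of muscle. This one array, saline paw replicate 1, thus stood with the muscle arrays. The saline differences of Cacna1a, Cacna1b, Cacna1c, Cacna1e, Cacna2d1 and Cacna2d2 are given with and without it. So are some results of other comparisons, and the rest are given only with it. The 5 measured markers of peptide-releasing neurons (Calcb, Tac1, Kit, Gfra3 and Trpv1) were all called higher in paw than in muscle in each of the 3 comparisons described below. Of all genes, 1.87% were called higher after saline, 5.75% after CFA and 11.6% over both treatments. The paw cells had been sorted as CGRP-positive and the muscle cells as CGRP-negative. Calcb, which encodes the beta form of CGRP, averaged 7.50 ± 0.07 in CFA paw and 7.21 ± 0.82 in saline paw, against 5.87 ± 0.16 in CFA muscle, 5.72 ± 0.18 in acid muscle and 6.02 ± 0.20 in saline muscle (log2 expression, SD, n = 3 each). The gene of the reporter itself was not analysed here. Between any 2 groups the standard error (SE) of a log2 difference had a median over genes of 0.186, and the number of arrays limits the precision.

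All 10 genes had group means above 2.44 in all 5 groups, a dim limit below which 95% of 1194 odorant and pheromone receptor genes had their mean level. Cacna1i lay closest to it, above the limit on 14 of the 15 arrays, and the other 9 genes were above it on all 15. Levels are log2 expression of a gene's own probe set, so they are set side by side between groups and not between genes. In the tests below a gene is called where its p, adjusted over all 19938 genes, is under 0.05.

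**Figure D1:**
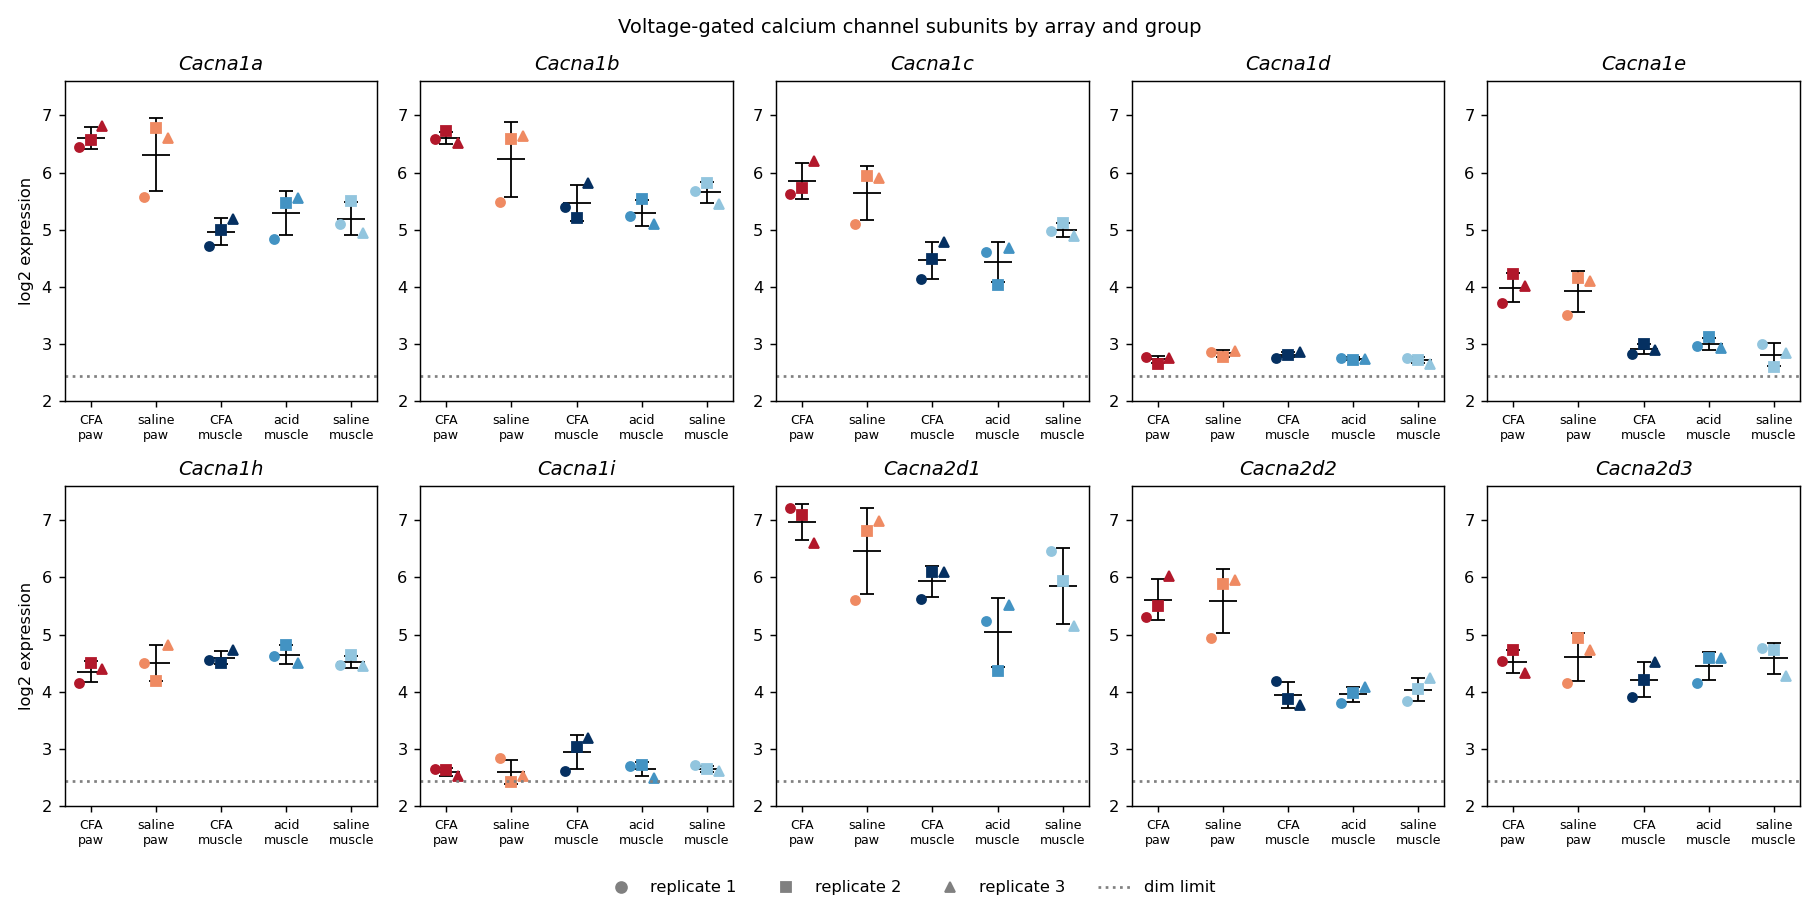
Log2 expression (vertical axis) of the 10 calcium channel genes on each of the 15 arrays by group (horizontal axis). Points are arrays, with the shape giving the replicate, bars are the mean and SD of 3 arrays, and the dotted line is the dim limit of 2.44. Cacna1a, Cacna1b, Cacna1c, Cacna1e and Cacna2d2 sit higher in both paw groups, with saline paw replicate 1 the lowest paw array of each, while Cacna1d stays within 2.66 to 2.88, and the paw and muscle arrays of Cacna1h and Cacna2d3 overlap.

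Cacna1a, the P/Q-type pore, was higher in skin than in muscle neurons. Its log2 expression was 6.44, 6.57 and 6.81 in CFA paw and 5.58, 6.77 and 6.60 in saline paw. It was 4.72, 5.00 and 5.19 in CFA muscle, 4.85, 5.47 and 5.55 in acid muscle, and 5.11, 5.51 and 4.95 in saline muscle. Every paw array lay above every muscle array, and the lowest paw value, 5.58 on saline paw replicate 1, was just above the highest muscle value of 5.55. Over saline and CFA together the difference between paw and muscle was 1.38 on the log2 scale (SE 0.198, 95% interval 0.96 to 1.81), a fold of 2.60, with an adjusted p of 0.000473 by limma. After CFA the difference was 1.64 (SE 0.281, adjusted p = 0.00395). After saline it was 1.13 (SE 0.281, adjusted p = 0.054), which did not pass. The saline difference was 1.50 once saline paw replicate 1 was left out, with an adjusted p of 0.000648 by limma, and 0.90 once saline paw replicate 2 was (adjusted p = 0.292), with no call for 5 of the 6 arrays left out in turn.

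Cacna1b, the N-type pore, had log2 expression of 6.58, 6.73 and 6.51 in CFA paw and 5.48, 6.59 and 6.63 in saline paw. It had 5.39, 5.21 and 5.82 in CFA muscle, 5.24, 5.54 and 5.10 in acid muscle, and 5.68, 5.82 and 5.45 in saline muscle. The CFA paw arrays all lay above the CFA muscle arrays, whereas saline paw replicate 1 fell among the saline muscle arrays. Over both treatments paw neurons were higher by 0.86 (SE 0.184, 95% interval 0.46 to 1.25, adjusted p = 0.00659 by limma), a fold of 1.81. The difference after CFA was 1.13 (SE 0.26, adjusted p = 0.0184). Leaving out 1 array at a time ended this CFA call for 5 of the 6 arrays, all but CFA muscle replicate 3, with an adjusted p of up to 0.0805 by limma and a difference of 1.00 to 1.30. The difference after saline was 0.58 (SE 0.26, adjusted p = 0.271), and it was 0.96 without saline paw replicate 1 (adjusted p = 0.00324), 0.40 without replicate 2 (adjusted p = 0.711) and 0.38 without replicate 3 (adjusted p = 0.689). It was not called for 5 of the 6 arrays left out in turn.

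Cacna1e, the R-type pore, had 3.72, 4.22 and 4.02 in CFA paw and 3.51, 4.15 and 4.10 in saline paw. The values were 2.83, 3.00 and 2.89 in CFA muscle, 2.96, 3.12 and 2.93 in acid muscle, and 2.99, 2.60 and 2.85 in saline muscle. Paw and muscle arrays did not overlap, and the muscle values lay close above the dim limit. The difference was 1.11 after saline (SE 0.181, adjusted p = 0.00728) and 1.08 after CFA (SE 0.181, adjusted p = 0.00351) by limma. Over both it was 1.09 (SE 0.128, 95% interval 0.82 to 1.36, adjusted p = 0.00011), a fold of 2.13. The saline call was lost without saline paw replicate 2 (0.99, adjusted p = 0.0565) and without saline paw replicate 3 (1.02, adjusted p = 0.0591). It was kept without saline paw replicate 1 (1.31, adjusted p = 0.000155 by limma).

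Of the 2 L-type pores, 1 was called between skin and muscle neurons. Cacna1c, the main L-type pore of heart, smooth muscle and many neurons, had 5.63, 5.73 and 6.21 in CFA paw and 5.10, 5.93 and 5.90 in saline paw. It had 4.14, 4.48 and 4.79 in CFA muscle, 4.61, 4.03 and 4.68 in acid muscle, and 4.97, 5.12 and 4.90 in saline muscle. CFA paw lay wholly above CFA muscle, while saline paw replicate 1, at 5.10, fell within the saline muscle range. Over both treatments paw neurons were higher by 1.02 (SE 0.176, 95% interval 0.64 to 1.39, adjusted p = 0.00161 by limma), a fold of 2.03. The difference was 1.39 after CFA (SE 0.249, adjusted p = 0.00495) and 0.65 after saline (SE 0.249, adjusted p = 0.201), and not called after saline for 5 of the 6 arrays left out in turn. The saline difference was 0.92 without saline paw replicate 1 (adjusted p = 0.0126), against 0.51 without replicate 2 (adjusted p = 0.596).

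Cacna1d, an L-type pore that opens at less depolarised voltages, had 2.78, 2.66 and 2.76 in CFA paw and 2.86, 2.77 and 2.88 in saline paw. It had 2.77, 2.82 and 2.86 in CFA muscle, 2.77, 2.72 and 2.75 in acid muscle, and 2.77, 2.72 and 2.66 in saline muscle. All 15 values lay within 2.66 to 2.88, near the dim limit of 2.44, where signal over background limits what can be seen. The paw minus muscle difference over both treatments was 0.02, with a 95% interval of −0.14 to 0.18 (adjusted p = 0.867 by limma). The lowest saline paw value, 2.767, was barely above the highest saline muscle value, 2.765. The means of these 2 groups differed by 0.12 (SE 0.104, adjusted p = 0.584 by limma).

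Neither T-type pore was called between skin and muscle neurons. Cacna1h, the main T-type pore of sensory neurons, had 4.16, 4.50 and 4.41 in CFA paw and 4.51, 4.19 and 4.82 in saline paw. It had 4.55, 4.51 and 4.73 in CFA muscle, 4.62, 4.82 and 4.50 in acid muscle, and 4.47, 4.64 and 4.45 in saline muscle. Every CFA muscle array lay above every CFA paw array, by a small margin, and the saline groups overlapped. The difference was −0.24 after CFA (SE 0.163, adjusted p = 0.422), −0.01 after saline (SE 0.163, adjusted p = 0.975) and −0.13 over both (95% interval −0.38 to 0.12, adjusted p = 0.469) by limma.

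Cacna1i, a second T-type pore, had 2.65, 2.63 and 2.52 in CFA paw and 2.84, 2.42 and 2.54 in saline paw. It had 2.62, 3.03 and 3.20 in CFA muscle, 2.71, 2.73 and 2.50 in acid muscle, and 2.71, 2.65 and 2.61 in saline muscle. CFA muscle replicates 2 and 3 were the highest of all 15 arrays, and the other 13 lay near the dim limit. Paw minus muscle was −0.21 over both treatments (95% interval −0.44 to 0.03, adjusted p = 0.225 by limma). With arrays weighted by their quality it was −0.27 and called lower in paw (adjusted p = 0.0132).

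Among the alpha2delta subunits, Cacna2d2 was higher in skin than in muscle neurons under both treatments. Its log2 expression was 5.31, 5.51 and 6.02 in CFA paw and 4.95, 5.88 and 5.95 in saline paw. It was 4.20, 3.88 and 3.77 in CFA muscle, 3.81, 3.98 and 4.08 in acid muscle, and 3.84, 4.04 and 4.24 in saline muscle. The lowest paw array, at 4.95, stood above the highest muscle array, at 4.24. The difference was 1.55 after saline (SE 0.247, adjusted p = 0.00709), 1.67 after CFA (SE 0.247, adjusted p = 0.00152) and 1.61 over both (SE 0.175, 95% interval 1.24 to 1.99, adjusted p = 5.93e-05) by limma, the last a fold of 3.05. The saline call was lost without saline paw replicate 2 (1.41, adjusted p = 0.0517) and without saline paw replicate 3 (1.38, adjusted p = 0.0548). It was kept without saline paw replicate 1 (1.88, adjusted p = 4.97e-05 by limma).

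Cacna2d1 encodes the alpha2delta form that rises in sensory neurons after nerve injury in rodents, and it had the largest SE of the 10 genes. It had 7.21, 7.09 and 6.61 in CFA paw and 5.61, 6.81 and 6.99 in saline paw. It had 5.63, 6.09 and 6.09 in CFA muscle, 5.24, 4.36 and 5.52 in acid muscle, and 6.46, 5.94 and 5.15 in saline muscle. CFA paw lay wholly above CFA muscle, while saline paw and saline muscle overlapped. Over both treatments the difference was 0.83 (SE 0.276, 95% interval 0.24 to 1.42, adjusted p = 0.059 by limma), which did not pass, and it was 1.04 without saline paw replicate 1 (adjusted p = 0.00435) and 0.98 without saline muscle replicate 1 (adjusted p = 0.0339). After CFA the difference was 1.035 (SE 0.391, adjusted p = 0.141). After saline it was 0.62 (adjusted p = 0.443), and 1.05 without saline paw replicate 1 (adjusted p = 0.0517). A second probe set of Cacna2d1, with a slightly lower mean, gave 1.14 over both treatments (SE 0.254, adjusted p = 0.00806). It gave 1.28 after CFA (SE 0.359, adjusted p = 0.0474) and 1.00 after saline (adjusted p = 0.174) by limma. The 2 probe sets of this gene therefore fell on different sides of the threshold after CFA and over both.

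Cacna2d3, an alpha2delta form linked to heat pain in flies and mice, had 4.54, 4.73 and 4.32 in CFA paw and 4.15, 4.95 and 4.73 in saline paw. It had 3.91, 4.21 and 4.52 in CFA muscle, 4.16, 4.60 and 4.59 in acid muscle, and 4.77, 4.73 and 4.28 in saline muscle. Paw and muscle overlapped under both treatments. The difference over both was 0.17 (95% interval −0.17 to 0.51, adjusted p = 0.487 by limma).

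**Figure D2:**
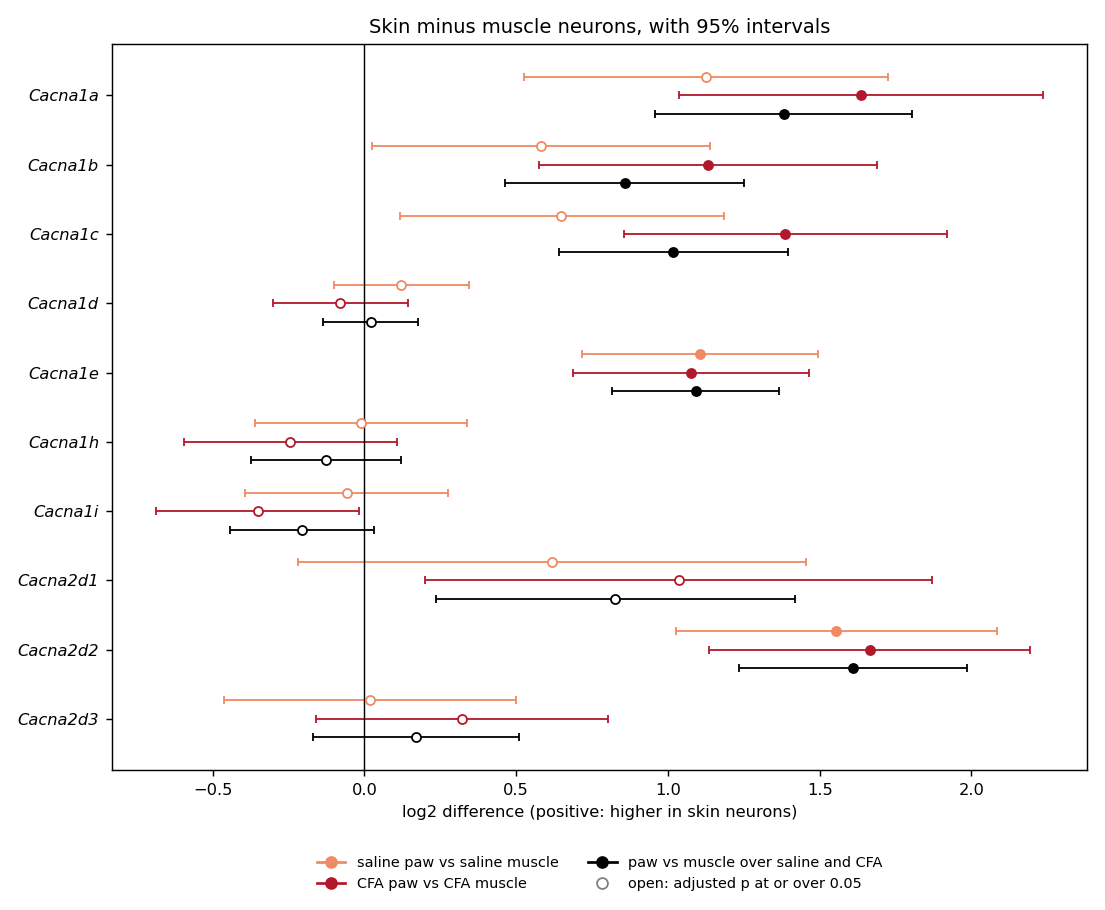
Log2 difference of paw (skin) minus muscle neurons (horizontal axis) for each calcium channel gene, after saline, after CFA and over both, with 95% intervals. Filled points have an adjusted p under 0.05. Cacna2d2 and Cacna1e are filled in all 3 comparisons, Cacna1a, Cacna1b and Cacna1c after CFA and over both, and Cacna1d, Cacna1h, Cacna1i, Cacna2d1 and Cacna2d3 in none.

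Counted over the 10 genes, 2 were higher in saline paw than in saline muscle neurons and 0 were lower, where 1.87% of all genes tested were called higher and 0.171% lower. After CFA, 5 were higher and 0 lower in paw, against 5.75% and 0.667% of all genes. Over both treatments, 5 were higher and 0 lower, against 11.6% and 3.12%. The median log2 difference of the 10 genes was 0.60 after saline, 1.05 after CFA and 0.84 over both, where the medians over all genes were −0.02, −0.04 and −0.04. The paw arrays lay wholly above the muscle arrays for 4 of the 10 after saline (8.11% of all genes), 6 after CFA (18.9%) and 3 over both (4.37%), and wholly below for 1 after CFA (17.1%). The 4 after saline include Cacna1d, whose lowest saline paw value of 2.767 barely exceeded its highest saline muscle value of 2.765. In order of group means, CFA paw and saline paw were the highest pair for Cacna1a, Cacna1b, Cacna1c, Cacna1e, Cacna2d1 and Cacna2d2, and the 2 paw means differed by less than the larger of their SDs for each of these 6.

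These differences went with properties of whole arrays. The 10 sensory neuron markers, which include the sodium channels Scn9a and Scn10a and the neuronal tubulin Tubb3, averaged 8.41 to 8.55 in CFA paw and 7.53 to 8.63 in saline paw, against 6.81 to 7.22 in CFA muscle, 6.62 to 7.57 in acid muscle and 6.96 to 7.37 in saline muscle. All 10 had a positive paw minus muscle difference over both treatments, and 9 were called higher (Avil, Isl1, Pou4f1, Prph, Tubb3, Rbfox3, Scn10a, Nefh and Uchl1). In this comparison 11.6% of all genes were called higher and 3.12% lower. Of 11 measured markers of large myelinated neurons, 8 had a positive difference and 5 were called higher (Nefh, Nefl, Ntrk3, Cntnap2 and Kcna1). Of 5 measured Schwann cell markers, 4 had a negative difference and 1, Mag, which encodes a myelin glycoprotein, was called lower. Their mean level was 4.97 to 5.11 in CFA paw and 4.91 to 5.05 in saline paw, against 5.13 to 5.89 in CFA muscle, 4.85 to 6.04 in acid muscle and 5.16 to 5.57 in saline muscle. Of 8 vessel markers, all had a negative difference and 1, the smooth muscle actin gene Acta2, was called lower. The 8 macrophage markers were all at a negative difference with 0 called, and their mean of 2.15 to 2.52 lay near the dim limit on every array. Of 8 satellite glia markers, 6 had a positive difference and 1, S100b, was called higher, and of 6 fibroblast and 6 skeletal muscle markers 0 were called. In RNA from sorted cells, fewer cells of a type and less RNA per cell cannot be told apart. The part of the levels of other cell types in the calcium channel differences was not tested, and that of the neuron markers only through the covariate below.

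The mean of the 10 calcium channel genes was 4.90, 5.04 and 5.02 in CFA paw and 4.46, 5.05 and 5.11 in saline paw. It was 4.08, 4.22 and 4.39 in CFA muscle, 4.10, 4.14 and 4.22 in acid muscle, and 4.38, 4.38 and 4.15 in saline muscle. Saline paw replicate 1 was the lowest paw array in this mean, in the neuron markers and in the SD over genes.

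**Figure D3:**
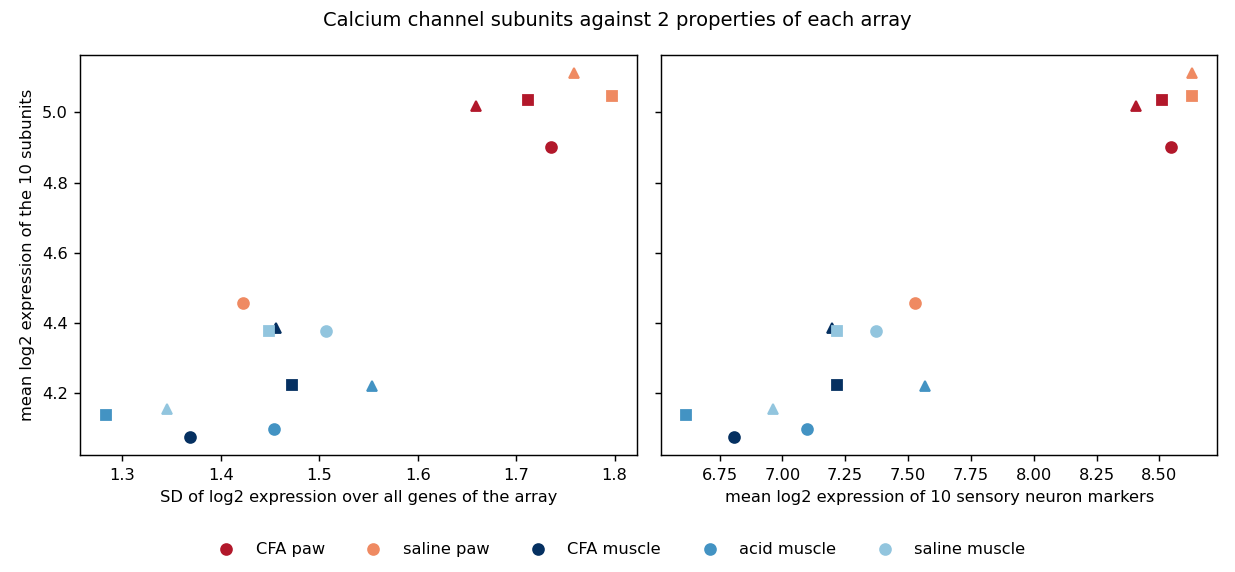
Mean log2 expression of the 10 calcium channel genes (vertical axis) against the SD of log2 expression over all genes (left) and the mean of 10 sensory neuron markers (right), 1 point per array, coloured by group with shapes for the replicate as in the plot of levels. Saline paw replicate 1 lies at an SD of 1.42 and a marker mean of 7.53, beside the muscle arrays, and the other 5 paw arrays lie apart at the upper right.

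How far the size of the skin minus muscle difference depended on the scale of the arrays differed between genes. Centring each array on its median gave 5 called of the 10 genes over both treatments, with a median difference of 0.94, and 2551 of all genes higher and 284 lower. Cacna1e was at 1.19 after centring, 1.14 after cyclic loess and 1.06 after quantile normalization, against 1.09 as deposited. Over both treatments, 4 of the 10 genes were called after cyclic loess between arrays (median difference 0.31) and 4 after quantile normalization (median 0.25), since Cacna1b, at 0.35 and 0.29, no longer passed (adjusted p = 0.16 and 0.284 by limma). With the array's SD over genes as a covariate, 3 were called, namely Cacna1a at 0.89, Cacna1e at 0.88 and Cacna2d2 at 1.35. With the mean of the sensory neuron markers as a covariate, 0 were called, where limma called 843 of all genes. Cacna2d2 was then at 1.17 (SE 0.323, adjusted p = 0.0542), Cacna1e at 0.75 (adjusted p = 0.0847), Cacna1a at 0.55 (adjusted p = 0.344), Cacna1b at 0.25 (adjusted p = 0.725) and Cacna1c at 0.15 (adjusted p = 0.777). The difference of Cacna2d1, which was not called, turned from 0.83 to −0.25 with the array SD and to −0.83 with the neuron markers (adjusted p = 0.484 and 0.0805). The same settings changed the balance over all genes, from 2304 higher and 622 lower as deposited to 1363 and 890 after cyclic loess, 1001 and 692 after quantile normalization, 431 and 435 with the array SD, and 214 and 629 with the neuron markers. The covariates follow the paw and muscle groups closely, so these fits take out part of any difference between the groups.

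**Figure D4:**
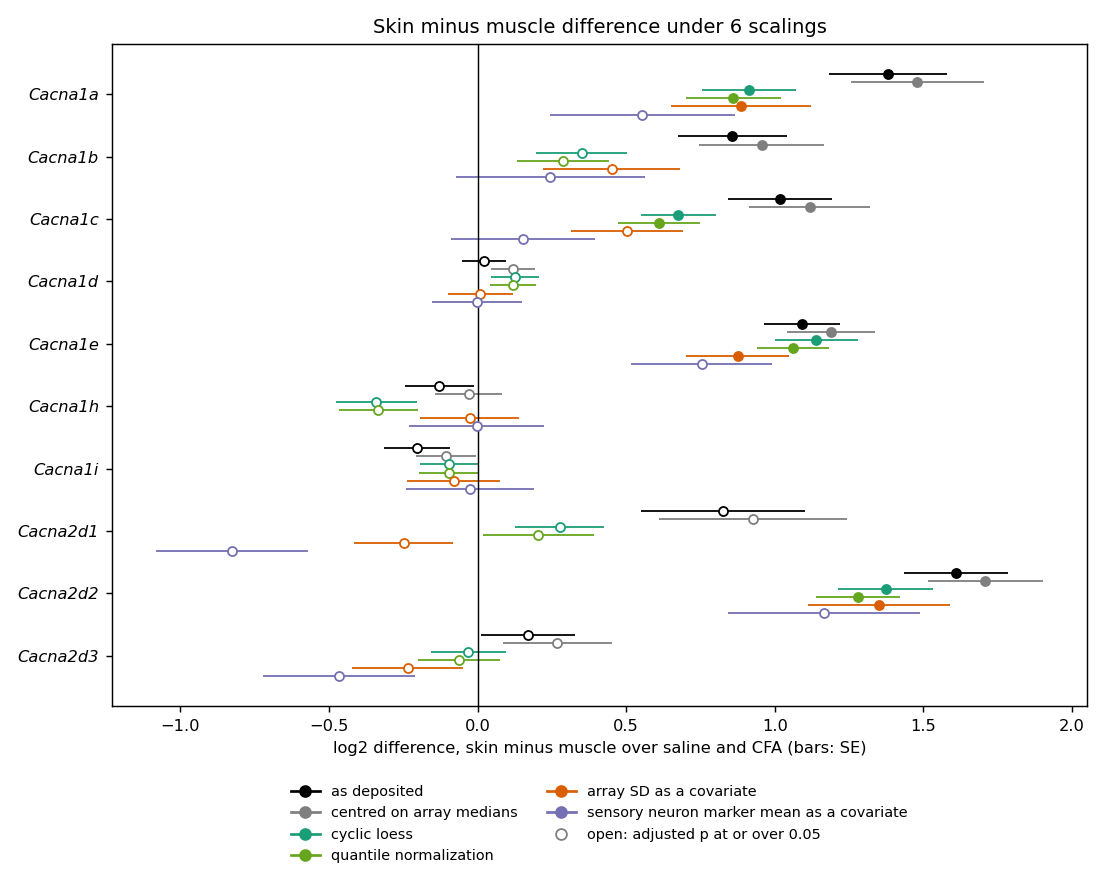
Log2 difference of paw (skin) minus muscle neurons over saline and CFA (horizontal axis) for each gene under 6 scalings, with the SE as bars. Filled points have an adjusted p under 0.05. Cacna2d2, Cacna1e and Cacna1a stay filled in 5 of the 6 scalings, and no gene is filled with the neuron markers as a covariate.

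CFA in the paw left the 10 genes without a called change. In CFA paw against saline paw, 0 of the 10 genes and 0 of all 19938 were called by limma, and 0 of the 10 had an unadjusted p under 0.05, where 1.21% of all genes (241) did. The largest differences were 0.50 for Cacna2d1 (SE 0.391, 95% interval −0.33 to 1.34), 0.37 for Cacna1b (SE 0.26, −0.19 to 0.93) and 0.29 for Cacna1a (SE 0.281, −0.31 to 0.89). Without saline paw replicate 1 these were 0.07, −0.01 and −0.08. Other differences grew without that array: Cacna2d3 went from −0.08 to −0.31 (SE 0.212) and Cacna2d2 from 0.02 to −0.30 (SE 0.201). A positive difference was then left for 2 of the 10 genes, against 6 with the array, and 0 were called. With all arrays, the intervals of Cacna1d (−0.33 to 0.12) and Cacna1i (−0.34 to 0.33) were the narrowest, and both genes lie near the dim limit. Every one of the 10 intervals included 0.

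CFA and acid in the muscle also gave no called change, with 0 of all genes called by limma in either comparison. In CFA muscle against saline muscle, 0 of the 10 genes had an unadjusted p under 0.05 (2.6% of all genes, 518). Cacna1c came closest: it was 4.14, 4.48 and 4.79 in CFA muscle, all below the 4.97, 5.12 and 4.90 of saline muscle, where 4.1% of all genes lay wholly below. Its difference was −0.53 (SE 0.249, 95% interval −1.06 to 0.01, unadjusted p = 0.0523 and adjusted p = 1 by limma). Cacna2d3 was at −0.38 (SE 0.225) and Cacna1i at 0.29 (SE 0.156), both with an adjusted p of 1.

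In acid muscle against saline muscle, 1 of the 10 genes, Cacna1c, had an unadjusted p under 0.05 (2.85% of all genes, 568). The acid values of 4.61, 4.03 and 4.68 again lay wholly below the saline values, as they did for 2.94% of all genes, with a difference of −0.56 (SE 0.249, 95% interval −1.09 to −0.02, unadjusted p = 0.0416 and adjusted p = 1 by limma). Both comparisons use the same 3 saline muscle arrays. Cacna2d1 was at −0.81 (SE 0.391, 95% interval −1.64 to 0.03), with acid replicate 2, at 4.36, the lowest of all 15 arrays for this gene. Its second probe set gave a smaller difference of −0.64 (SE 0.359).

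Set against each other, CFA muscle and acid muscle differed by an unadjusted p under 0.05 for 1 of the 10 genes (3.14% of all genes, 626), with 0 of all genes called by limma. Cacna2d1 had 5.63, 6.09 and 6.09 in CFA muscle, all above the 5.24, 4.36 and 5.52 of acid muscle, which held for 2.92% of all genes. The difference was 0.89 (SE 0.391, 95% interval 0.06 to 1.73, unadjusted p = 0.0377 and adjusted p = 1 by limma), and the second probe set gave 0.90 (SE 0.359). Cacna1i was 0.31 higher in CFA muscle (SE 0.156, unadjusted p = 0.0702), which did not pass.

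**Figure D5:**
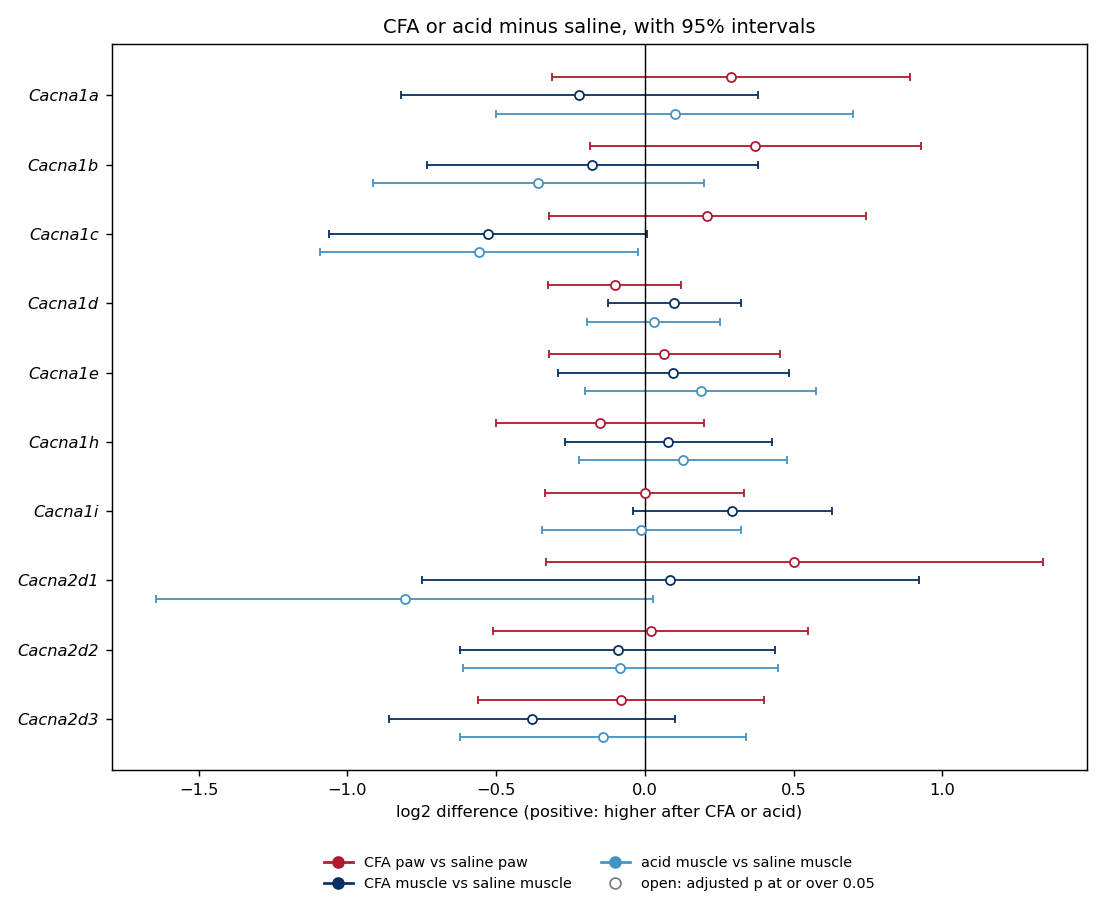
Log2 difference of CFA or acid minus saline (horizontal axis) for each calcium channel gene in paw and muscle neurons, with 95% intervals. All 30 points are open, meaning an adjusted p at or over 0.05, and all intervals cross 0 except that of Cacna1c in acid muscle, which ends at −0.02.

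The CFA effect in paw minus the CFA effect in muscle tests whether inflammation acted differently on the skin and muscle neurons. None of the 10 genes was called by limma, 0 of all genes were, and 0 of the 10 had an unadjusted p under 0.05 (1.63% of all genes, 325). Cacna1c was furthest from 0, at 0.74 (SE 0.352, 95% interval −0.02 to 1.49, unadjusted p = 0.0546, adjusted p = 1), and at 0.47 without saline paw replicate 1. Cacna1b was at 0.55 (SE 0.368) and at 0.17 without that array. Cacna1a was at 0.51 (SE 0.397) and at 0.14 without it.

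Of the remaining pore and alpha2delta genes, 0 of 5 were called in any comparison. Of all genes, 1.87% were called higher in paw after saline, 5.75% after CFA and 11.6% over both treatments. The shares called lower were 0.171%, 0.667% and 3.12%, and the comparisons of CFA or acid called 0 of all genes. With shares that small, nothing is read from the 0 of 5. Cacna1f and Cacna1s, the L-type pores of retina and skeletal muscle, had means over all arrays of 2.41 and 2.37, under the dim limit. Cacna1g, a further T-type pore, averaged 2.58, Cacna2d4 3.36 and Cachd1, an alpha2delta-like protein, 4.85. Their paw minus muscle differences over both treatments were −0.14 for Cacna1f, −0.22 for Cacna1s, −0.12 for Cacna1g, −0.38 for Cacna2d4 and 0.18 for Cachd1.

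Beta subunits bind the pore inside the cell and carry it to the membrane. Of 3 measured, 1 was called, after CFA and over both treatments, where 5.75% and 11.6% of all genes were called higher in paw. Cacnb1 had 5.40, 5.07 and 5.30 in CFA paw and 4.46, 4.70 and 5.17 in saline paw. It had 4.57, 4.48 and 4.13 in CFA muscle, 4.38, 4.53 and 4.81 in acid muscle, and 4.43, 4.46 and 4.50 in saline muscle. It was higher in paw by 0.86 after CFA (SE 0.185, adjusted p = 0.013) and by 0.59 over both treatments (SE 0.131, adjusted p = 0.00797) by limma. After saline its difference was 0.315 and not called, with saline paw replicate 1 within the saline muscle range. Cacnb4, with a mean of 6.13, was at 0.73 over both (SE 0.261, adjusted p = 0.0761), and Cacnb2, with a mean of 2.54, at −0.11. Cacnb3 was not analysed here.

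The gamma family holds Cacng1, the subunit of the skeletal muscle channel, and relatives such as Cacng2 that escort AMPA-type glutamate receptors. Of 7 measured, 1 was called higher in paw after saline, 2 after CFA and 3 over both treatments. The shares of all genes were 1.87%, 5.75% and 11.6%, and nothing is read from these small counts. Cacng7 had 7.28, 7.05 and 7.52 in CFA paw and 6.19, 7.66 and 7.41 in saline paw, against 5.15, 5.09 and 5.07 in CFA muscle, 5.19, 4.96 and 6.43 in acid muscle, and 5.25, 5.44 and 5.53 in saline muscle. Paw lay wholly above the CFA and saline muscle arrays, while acid muscle replicate 3 lay above saline paw replicate 1. The difference was 1.68 after saline (SE 0.364, adjusted p = 0.0316), 2.18 after CFA (adjusted p = 0.00336) and 1.93 over both (SE 0.258, adjusted p = 0.000279) by limma. Cacng2, with a mean of 5.17, was called only over both, at 0.67 (SE 0.195, adjusted p = 0.0342). A second probe set of Cacng2, with a mean of 4.43, gave 1.46 after saline (adjusted p = 0.0348), 1.35 after CFA (adjusted p = 0.0229) and 1.41 over both (SE 0.229, adjusted p = 0.00111) by limma, and would be called in all 3. Cacng3 was called after CFA and over both (0.58, adjusted p = 0.00234), but its mean of 2.03 lies under the dim limit. Cacng1, Cacng4, Cacng5 and Cacng8, with means of 4.54, 4.75, 3.72 and 3.81, were not called, and Cacng6 was not analysed here.

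Of 20 measured regulators of channel gating, traffic and turnover, 3 were called higher in paw than in muscle after saline, 6 after CFA and 10 over both treatments, with 0 lower. Of all genes, 1.87%, 5.75% and 11.6% were called higher in the same comparisons, and 0.171%, 0.667% and 3.12% lower. With shares that small, nothing is read from the 0 lower. Dpysl2, which encodes CRMP2, a partner of the N-type channel, was higher by 1.10 after saline (SE 0.245, adjusted p = 0.0354), 1.65 after CFA (adjusted p = 0.00152) and 1.38 over both (SE 0.173, adjusted p = 0.000177) by limma. Stac, an adaptor that slows inactivation of L-type channels, was higher by 1.21, 1.40 and 1.31 in the same order (adjusted p = 0.0474, 0.0109 and 0.000892). Rem2, a small GTP-binding protein that inhibits the channels, was called after saline (0.71, adjusted p = 0.0346) and over both (0.41, adjusted p = 0.0246). Calm3, a calmodulin gene, Cbarp, an inhibitor that binds beta subunits, Nedd4l, a ubiquitin ligase, and Ncs1, a neuronal calcium sensor, were called after CFA and over both, at 1.16, 1.00, 0.92 and 1.08 over both. Cabp1, Rims2, which tethers channels at release sites, and Usp5, which removes ubiquitin from Cacna1h in rodents, were called only over both, at 0.72, 0.52 and 0.70.

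Of 23 measured genes for calcium clearance and stores, 0 were called after saline, 2 after CFA and 4 over both treatments, all higher in paw. Of all genes, 1.87%, 5.75% and 11.6% were called higher in the same comparisons, and nothing is read from these small counts. Ryr2, a calcium release channel of the endoplasmic reticulum, was higher by 1.05 over both (SE 0.172, adjusted p = 0.00115), and Atp2b3, a plasma membrane calcium pump, by 0.78 (SE 0.128, adjusted p = 0.00116) by limma. Slc24a2 and Slc24a3, sodium-calcium-potassium exchangers, were higher by 0.89 (adjusted p = 0.0155) and 0.54 (adjusted p = 0.0183). No gene of these 5 lists was called in any comparison of CFA or acid with saline, or of CFA with acid. Each of those comparisons called 0 of all 19938 genes, so nothing is read from this about the lists.

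For the 3 calcium channel genes with the widest range of group means, the genes with the closest pattern over the 15 arrays were listed as a description, among genes with means above the dim limit. Cacna1a was closest to Cdr1os, a non-coding RNA gene, with a Pearson r of 0.985, then to the kainate receptor gene Grik4 (0.976) and Ptprn (0.974), which encodes a protein of dense-core vesicles. Cacna2d2 was closest to Ctxn1 (0.975), Tgfb1i1 (0.975) and Gpx3 (0.972), and Cacna2d1 to Nicn1 (0.964), Rnf214 (0.962) and Ank3 (0.962), the gene of an axonal ankyrin. Ctxn1 had group means of 7.09 in CFA paw and 6.52 in saline paw, against 4.75 in CFA muscle, 4.95 in acid muscle and 4.76 in saline muscle. These correlations are over the same 15 arrays, which include the paw and muscle groups together and saline paw replicate 1.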

How the data were processed

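Expression was measured on 15 Affymetrix arrays, in 5 groups of 3. The authors deposited normalized log2 values, 1 per probe set and array, made with RMA and Partek per the submitters' processing notes, which state neither versions nor the log base. The range of 0.397 to 13.8 was read as log2. The values were used as deposited. All columns were mapped to samples by title. Of 35556 probe sets, 21789 had 1 gene symbol, 1621 had several and 12146 were unnamed. For 999 genes with several probe sets the one with the highest mean was used, which left 19938 genes. No gene was removed as dim.

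Differences were tested with limma 3.58.1 in R 4.3.3: 5 group means over 15 arrays, 10 residual and 4.32 prior degrees of freedom, two-sided p adjusted by Benjamini-Hochberg over all genes, threshold 0.05. The fit was tested on simulated data. The p-values measure the spread between these samples, whose sources the labels do not detail. The calcium channel genes and the gene lists were chosen with earlier results of these data known. All 10 genes are named in every comparison, as are beta, gamma and remaining pore and alpha2delta genes, and other listed genes where called. Scn9a, and Ctxn1 for its group means, were chosen after their values were seen. Alternatives were centring, cyclic loess, quantile normalization, array SD as a covariate, a dim filter, array weights, a fit of only the arrays compared, a robust prior with an intensity trend, averaging a gene's probe sets, a threshold of 0.1, a replicate block, and leaving out each array. The neuron marker covariate and the second Cacng2 probe set were chosen after seeing the data. Promoter windows are from RefSeq, GRCm38.p6.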

Additional observations from a re-analysis of the deposited data

How the results depend on the processing

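Every difference of a calcium channel gene called as deposited, 12 in all, kept its sign under all alternatives run (246 values). Of 68 differences that were not called, 33 changed sign under at least 1 alternative, in 96 of 1314 values, the largest of size 0.842 (Cacna2d1, at −0.842 for CFA paw against CFA muscle with the neuron markers). Both totals include settings that cannot move a difference, so a kept sign there shows nothing. These are the dim filter, the fit of only the arrays compared, the robust prior, the threshold of 0.1 and the replicate block. Averaging probe sets could move only Cacna2d1. For saline paw against saline muscle, where 2 of the 10 genes were called, 0 were called with only the arrays compared, 6 with array weights and 0 with the neuron markers, and 0 to 5 when 1 array was left out, with 5 without saline paw replicate 1 and 0 without replicate 2 or 3. Fitted alone, those 6 arrays gave 0 calls over all genes. For CFA paw against CFA muscle, where 5 were called, 1 was called with the array SD, 0 with the neuron markers, 4 after cyclic loess or quantile normalization, 6 with only the arrays compared (adding Cacna2d1, adjusted p = 0.00732), 7 with array weights, and 4 to 5 with 1 array left out. Over both treatments, where 5 were called, 3 were called with the array SD, 0 with the neuron markers, 7 with array weights, 6 without dim genes or with a gene's probe sets averaged, and 5 to 6 with 1 array left out. In both of these comparisons array weights added Cacna2d1 and, as lower in paw, Cacna1i (−0.41, adjusted p = 0.0214 after CFA; −0.27, adjusted p = 0.0132 over both), by limma. The CFA and acid comparisons, and paw minus muscle in the CFA effect, gave 0 called calcium channel genes under all alternatives. Over all genes, saline paw against saline muscle gave 0 to 7379 calls (407 as deposited), CFA paw against CFA muscle 408 to 4054 (1279) and both together 843 to 9139 (2926). CFA paw against saline paw gave 125 with array weights, where the weight of saline paw replicate 1 was 0.148 and that of replicate 3 was 7.18. Without CFA muscle replicate 1, limma called 8 genes for CFA against saline muscle, 6 for CFA against acid muscle and 1 for paw minus muscle in the CFA effect. With the replicate number as a block, 3 calcium channel genes were called after saline, 5 after CFA and 5 over both. Deviations of the 30 same-numbered pairs correlated from −0.534 to 0.339, with 10 over 0.1. The 60 other pairs ran from −0.489 to 0.57, with 25 over 0.1. Deviations from means of 3 arrays are tied to each other, so these ranges do not decide whether the numbers pair the samples. For the settings above, the cause of a changed count was not tested. Signal over background limits Cacna1i, Cacna1d and Cacna1e in muscle, which lie near the dim limit of 2.44.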
